A study of Homo sapiens with 31 samples.

Results

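The basal and stratified keratins KRT5, KRT14, KRT15, KRT6A, KRT6B, KRT6C, KRT16, KRT17, KRT13 and KRT4 were taken by symbol from a table of FPKM, the fragments of a gene per unit of its length and of sequencing depth, as 10 of 19221 genes. The members were chosen by earlier results of these data, in which keratins of this kind were low in the libraries with CEBPB knockdown and high in those of the resistant strain. Their values in those comparisons are therefore given as a description, with no p-value. mRNA of 31 libraries in 4 groups was sequenced. C13* shCON (n = 7) was C13*, a cisplatin-resistant human cell line that the study used as ovarian cancer, with a control shRNA. The labels also call it the state before knockdown. The study's discussion calls the use of C13* somewhat improper, given the origin of the line. C13* shCEBPB (n = 8) was the same line with a lentiviral shRNA against CEBPB, the gene of the transcription factor C/EBPβ. A2780 (n = 8) was an untreated human ovarian carcinoma line, and A2780 OlaR (n = 8) was a strain of A2780 grown in rising amounts of olaparib, an inhibitor of PARP. The labels name no olaparib for the C13* groups and no shRNA for the A2780 groups. Whether the resistant strain or the knockdown cells came from 1 clone is not stated in the sources used here. The study's methods call the libraries of a group biological replicates, but neither they nor the labels say that these came from separate cultures, so a test measures only the spread between libraries, which may be technical.

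Keratins are the intermediate filament proteins of epithelial cells, and each filament pairs type I with type II chains. KRT5 (type II) and KRT14 (type I) form the network of the basal layer of stratified epithelia, where KRT15 (type I) is also made. KRT6A, KRT6B and KRT6C (type II) go with KRT16 and KRT17 (type I) in hair follicles and in wounded or stressed skin, and KRT4 (type II) goes with KRT13 (type I) above the basal layer of mucosal epithelia that do not cornify. Ovarian surface and Müllerian epithelia are better known for the simple keratins KRT7, KRT8, KRT18 and KRT19.

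Before the keratins, the groups were checked against their labels. The targeted gene, CEBPB, had a mean of 85.8 ± 9.93 FPKM in the 7 shCON libraries and of 47.1 ± 9.05 in the 8 shCEBPB libraries (SD). Its libraries did not overlap, as was the case for 66.0% of the 12006 genes tested between these groups. A lack of overlap thus does not set CEBPB apart from other genes. Over the group means of log2(FPKM + 1) of 19221 genes, the libraries labelled A2780 OlaR lay near those labelled C13* shCON (Pearson r = 0.996 across genes) and far from those labelled A2780, their stated parent line (r = 0.856). Only 2 genes were at 1 FPKM or more in shCON and under 0.1 in OlaR, and 0 the other way, against 307 in each direction between A2780 and OlaR. The libraries labelled shCEBPB were also far from shCON (r = 0.890, with 347 and 158 genes on in a single group). Each of the 31 libraries was nearest to the mean of its own group. A single field of the labels gives A2780 as the cell line of shCON replicate 1, whose title gives C13*, and its r with the shCON mean was 0.999. The library codes begin with C for OlaR, O for A2780, CS for shCON and R for shCEBPB, and what the letters stand for is not stated in the sources used here. Whether the groups are the lines that their labels name was not tested, and every difference below is between libraries labelled so. Of the markers of ovarian tumours, PAX8 had a mean of at most 6.10 FPKM in a group, WT1 of at most 0.819 and MUC16 of at most 0.604, while MSLN and FOLR1 reached means of 154 and 887 in shCEBPB. Relative depth, read from the steps of low values, was 0.865 to 1.21 over the libraries. Absolute depth is unknown from FPKM, and the study's methods give only a minimum amount of sequence per sample. The mapped depth of each library is not stated there, so no counting interval or floor is given for a value at 0.

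The 5 type II members lie in a single cluster on chromosome 12 of hg38, and the 5 type I members in a cluster on chromosome 17. All 10 are protein-coding and on the minus strand in GENCODE 44, with 9 exons in the canonical transcript of each type II member and 8 in that of each type I member. KRT5 lies at chr12:52514575-52520530, between KRT6A (chr12:52487176-52493257) and, after 9 keratin genes that are no members, KRT4 (chr12:52806549-52814116). None of those 9 genes between, among them KRT1 and KRT2 of cornifying epidermis, had a mean of 1 FPKM in any group. KRT6B (chr12:52446651-52452146) and KRT6C (chr12:52468516-52473805) stand on the far side of KRT6A. On chromosome 17 the order is KRT13 (chr17:41500981-41505705), KRT15 (chr17:41513745-41522529), KRT14 (chr17:41582279-41586895), KRT16 (chr17:41609778-41615899) and KRT17 (chr17:41619442-41624842). KRT19 and KRT9 lie among them, of which KRT19 had a mean over 1 FPKM in shCON and OlaR. KRT17 shares 307 exonic bases with an unnamed gene on the opposite strand and KRT13 shares 476, and reads of such partners cannot be told apart if counting did not use the strand.

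Some members are so alike that reads can be shared between them. Of the windows of 150 bases (the read length) in the canonical transcript, 9.26% in KRT6A, 12.7% in KRT6B and 16.3% in KRT6C also occurred unchanged in a transcript of another gene. The share was 0.605% in KRT14 and 0.729% in KRT16, and no such window was found in KRT5, KRT15, KRT17, KRT13 or KRT4. With windows of 75 bases the share was 2.77% in KRT5, 4.57% in KRT17, 9.60% in KRT16, 10.2% in KRT14 and 26.2% to 42.5% in the KRT6 genes, and it remained 0 in KRT15, KRT13 and KRT4. Not all of these partners were members. The windows of KRT17 were shared most with KRT17P3 and unnamed genes, and those of KRT16 with KRT16P3, KRT14 and KRT16P2. The coding sequence of KRT14 was 88.6% identical to that of KRT16 and 84.7% to that of KRT17, and KRT16 and KRT17 were 79.3% identical. The longest run that KRT14 and KRT16 share is 158 bases of coding exon 1 (GENCODE 44 on hg38, minus strand), at chr17:41586368-41586525 in KRT14 and chr17:41612216-41612373 in KRT16. It is shown since KRT16 is set against KRT17 below. The aligned stretch of KRT17 (chr17:41624136-41624293) differs at 18 bases, which are in capitals.
KRT14: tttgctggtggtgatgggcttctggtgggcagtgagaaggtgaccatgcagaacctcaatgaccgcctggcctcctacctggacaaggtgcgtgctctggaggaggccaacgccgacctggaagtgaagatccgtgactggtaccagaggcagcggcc
KRT16: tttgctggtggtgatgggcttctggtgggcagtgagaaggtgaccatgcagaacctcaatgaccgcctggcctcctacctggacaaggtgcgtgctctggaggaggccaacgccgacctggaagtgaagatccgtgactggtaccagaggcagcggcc
KRT17: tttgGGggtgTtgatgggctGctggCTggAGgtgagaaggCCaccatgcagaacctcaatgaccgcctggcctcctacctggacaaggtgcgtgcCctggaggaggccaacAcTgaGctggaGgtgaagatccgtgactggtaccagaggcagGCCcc
Among the type II members, KRT5 shares with KRT6A and KRT6C a run of 104 bases in exon 2, at chr12:52519018-52519121 in KRT5, chr12:52491594-52491697 in KRT6A and chr12:52472138-52472241 in KRT6C. It is shown since KRT5 was the most abundant member and the KRT6 genes lay far below it. In the same stretch KRT6B (chr12:52450478-52450581) has 1 other base and KRT4 (chr12:52811835-52811938) has 35, again in capitals.
KRT5: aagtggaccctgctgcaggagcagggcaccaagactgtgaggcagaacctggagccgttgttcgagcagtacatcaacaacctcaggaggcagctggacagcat
KRT6A: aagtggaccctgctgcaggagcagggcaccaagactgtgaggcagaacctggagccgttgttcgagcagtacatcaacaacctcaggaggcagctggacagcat
KRT6C: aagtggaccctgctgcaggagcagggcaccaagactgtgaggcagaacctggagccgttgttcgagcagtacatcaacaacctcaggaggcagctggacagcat
KRT6B: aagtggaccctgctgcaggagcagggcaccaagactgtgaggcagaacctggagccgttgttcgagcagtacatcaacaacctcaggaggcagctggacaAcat
KRT4: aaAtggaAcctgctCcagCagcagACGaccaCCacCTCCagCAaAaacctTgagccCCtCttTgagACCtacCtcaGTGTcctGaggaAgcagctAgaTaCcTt
KRT6A and KRT6B were 97.5% identical over the coding sequence and KRT6A and KRT6C 97.9%, so values of the 3 KRT6 genes are uncertain among themselves. The sum of the 3 was 33.6 FPKM in shCON and 20.9 in OlaR, close to KRT6A alone (33.1 and 20.7).

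Promoters in RefSeq (GRCh38.p14) were matched for KRT5 and KRT4, the type II members of the basal layer and of the mucosal upper layers, and were not matched for KRT14, KRT15, KRT6A, KRT6B, KRT6C, KRT16, KRT17 or KRT13. The 250 bases before the start site are shown, on the minus strand, at chr12:52520395-52520644 for KRT5 and chr12:52814117-52814366 for KRT4, because both genes were near 0 in the same 2 groups. The RefSeq start of each is also that of its canonical GENCODE transcript, but another GENCODE transcript of KRT5 starts further upstream, so 136 of the 250 bases lie within the extent given above for that gene.
KRT5: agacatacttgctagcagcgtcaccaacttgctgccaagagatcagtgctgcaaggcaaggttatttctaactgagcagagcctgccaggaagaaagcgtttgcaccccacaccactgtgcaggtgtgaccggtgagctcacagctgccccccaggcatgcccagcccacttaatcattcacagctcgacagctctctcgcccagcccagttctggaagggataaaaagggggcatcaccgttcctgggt
KRT4: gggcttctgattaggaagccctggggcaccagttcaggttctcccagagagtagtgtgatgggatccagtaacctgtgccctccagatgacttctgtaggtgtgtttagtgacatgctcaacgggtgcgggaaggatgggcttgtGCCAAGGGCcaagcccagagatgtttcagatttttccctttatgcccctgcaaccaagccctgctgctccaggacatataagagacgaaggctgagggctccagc
Both strands of the window from 250 bases before to 50 after the start were searched for letters that known factors prefer. These were TTGCNNAA for C/EBP proteins, TGANTCA for AP-1 proteins, GCCNNNGGC for AP-2 proteins, TATAAA for the general transcription machinery and GGGCGG for Sp1. A single match was found, GCCAAGGGC for AP-2 in KRT4, which began 105 bases before the start (in capitals above). Of 35116 promoters of the same length, 10.5% held the C/EBP letters, 7.71% the AP-1 letters, 23.2% the AP-2 letters, 11.5% those of the general machinery and 45.0% the Sp1 letters. A match is a description and not a binding site, and no match says only that these letters are not in this window. With 1 match there was no overlap between motifs.

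KRT5 led the members where they were high. Its FPKM ran from 1368 to 1633 in the shCON libraries (median 1573) and from 1619 to 1991 in the OlaR libraries (median 1870). In shCEBPB it ran from 0 to 0.0416 (median 0.00988), with 4 of 8 libraries at 0, and it was listed at 0 in all 8 A2780 libraries. Every shCON and OlaR library was thus far above every library of the other 2 groups, and shCON and OlaR overlapped. KRT5 was the 27th most abundant gene by mean FPKM in shCON and the 20th in OlaR. The 4 shCEBPB values above 0 were between 1 and 2.05 times the smallest of them once relative depth was taken into account. KRT14, the basal partner of KRT5, ran from 72.3 to 85.8 FPKM in shCON (median 76.5) and from 29.7 to 40.3 in OlaR (median 35.4). It did not pass 0.125 in shCEBPB, and in A2780 it was at 0 in 7 of 8 libraries. On the FPKM scale, which takes length into account, KRT14 was 5.14% ± 0.242 of KRT5 in shCON and 1.92% ± 0.0706 in OlaR (SD, n = 7 and 8). KRT15 ran from 44.6 to 51.3 FPKM in shCON and from 53.6 to 64.3 in OlaR. It was 0.308 to 1.10 in shCEBPB and 0.0240 to 0.162 in A2780. Neither the high groups nor the low groups overlapped with each other. The share of all genes without overlap was not taken for these pairs, so nothing is read from it.

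**Figure D1:**
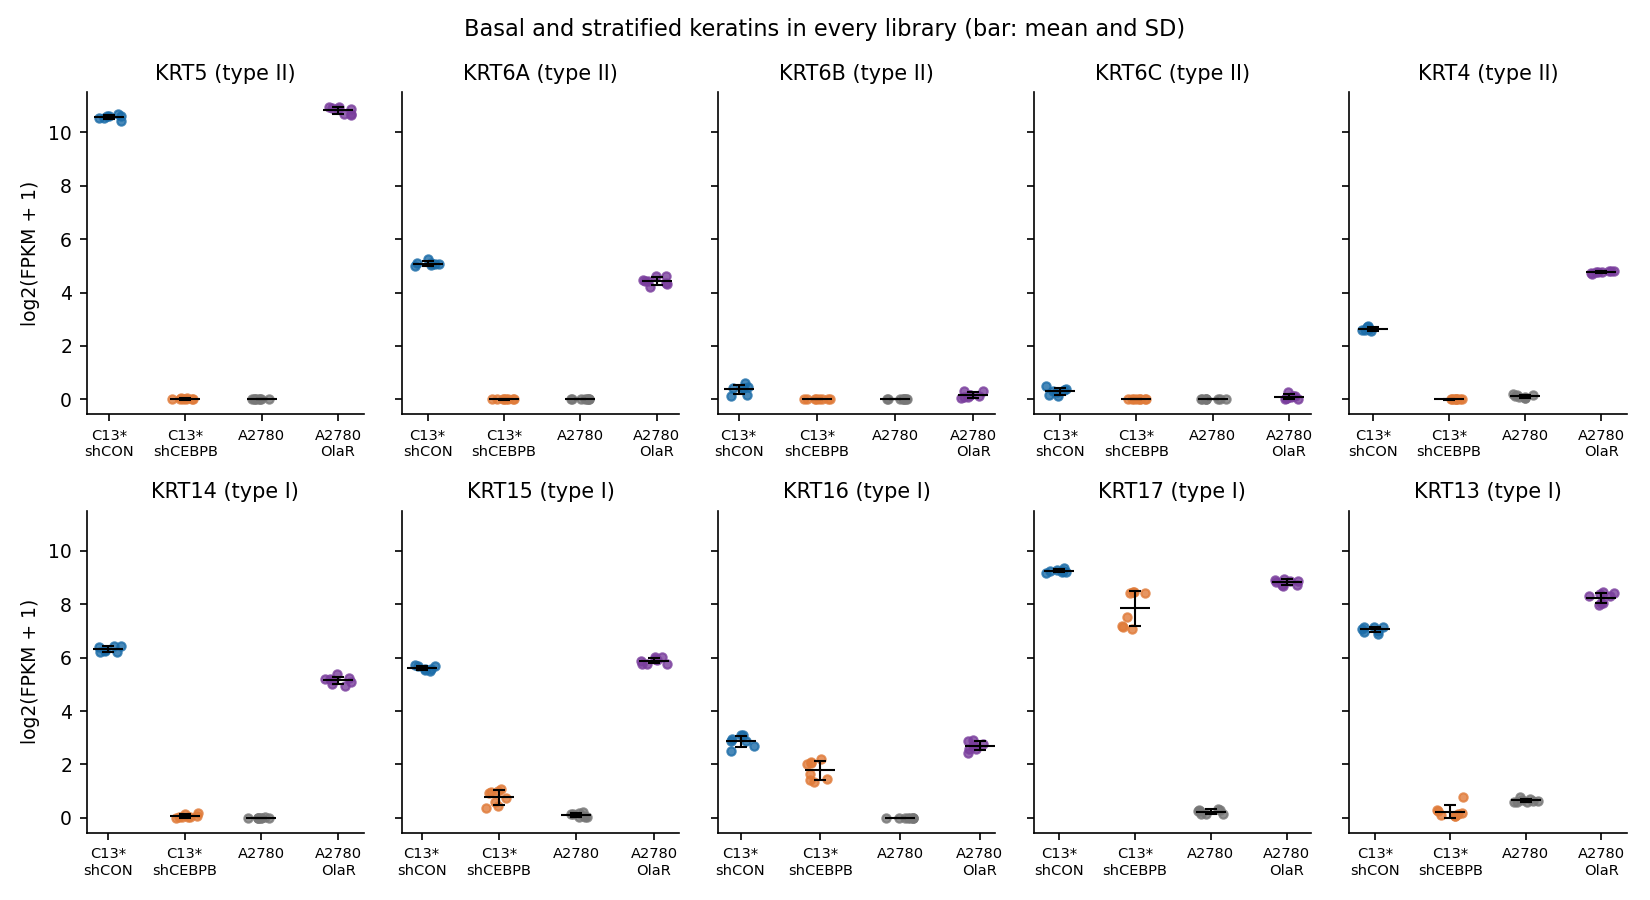
Level of each member in every library as log2(FPKM + 1), by group, with the mean and SD as bars (n = 7 for C13* shCON and 8 for the other groups). In A2780 no member passes 0.724 FPKM, and in shCEBPB only KRT17, KRT16 and, in 2 libraries, KRT15 reach 1 FPKM.

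The keratins of the mucosal upper layers, KRT13 and KRT4, were also high in shCON and OlaR alone. KRT13 was between 118 and 142 FPKM in shCON (median 134) and between 251 and 349 in OlaR (median 319). In A2780 it was 0.520 to 0.724 and in shCEBPB 0.0535 to 0.708, and these ranges overlapped. KRT13 was the most abundant member in A2780, at a mean of 0.576 ± 0.0723 FPKM (SD, n = 8). KRT4 was between 4.95 and 5.79 FPKM in shCON and between 24.6 and 27.0 in OlaR, and it did not pass 0.144 in the other groups. KRT4 thus stayed below its type I partner on average in each group.

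Among the keratins of wounded skin, KRT17 and KRT16 were the members at 1 FPKM or more in all 8 shCEBPB libraries. KRT17 ran from 579 to 654 FPKM in shCON (median 611), from 414 to 496 in OlaR (median 462) and from 135 to 353 in shCEBPB (median 262). No range overlapped another, as was the case for 66.0% of the genes tested in shCEBPB against shCON. That share was not taken for OlaR against either group, so nothing is read from it. In A2780 KRT17 was 0.103 to 0.262. KRT16 was 4.67 to 7.56 FPKM in shCON, 4.38 to 6.56 in OlaR and 1.53 to 3.56 in shCEBPB, and it was listed at 0 in all 8 A2780 libraries. KRT6A, the type II keratin of the same settings, was 30.9 to 37.4 FPKM in shCON and 17.5 to 23.4 in OlaR. Unlike KRT16 and KRT17 it was at 0 in 7 of 8 shCEBPB libraries and at 0.0232 in the other one, and it was at 0 throughout A2780. KRT6B and KRT6C did not pass 0.513 FPKM in any library and were at 0 in all libraries of shCEBPB and A2780.

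The order of the members was much alike in the 2 groups that made them. In shCON it was KRT5, KRT17, KRT13, KRT14, KRT15, KRT6A, KRT16, KRT4, KRT6B and KRT6C, where KRT16 overlapped with KRT4 and KRT6B with KRT6C. OlaR had the same first 3, and then KRT15, KRT14, KRT4, KRT6A, KRT16, KRT6B and KRT6C, where only the last pair of neighbours overlapped. KRT5 made up 62.6% ± 0.717 (SD, n = 7) of the members' summed FPKM in shCON and 66.7% ± 0.308 (SD, n = 8) in OlaR. In shCEBPB KRT17 made up 98.6% ± 0.228 (SD, n = 8) of it. The sum of all members was 0.553% ± 0.0213 of all FPKM in shCON, 0.610% ± 0.0414 in OlaR, 0.0573% ± 0.0232 in shCEBPB and 0.000219% ± 2.31e-05 in A2780. Since these are bulk libraries, fewer cells that make a keratin and less keratin mRNA per cell cannot be told apart.

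Since filaments pair both types, the summed type II level was set against the type I level. Within the members, the ratio of type II to type I was 1.80 ± 0.0551 for shCON and 2.17 ± 0.0349 for OlaR (SD over libraries). In shCEBPB the type I members summed to 253 ± 107 FPKM (SD, n = 8), nearly all of it KRT17, and the type II members to 0.0191 ± 0.0187. Over all keratin genes of the table the ratio was 0.770 ± 0.0151 in shCON and 0.796 ± 0.0150 in OlaR, because KRT19 and KRT18 are type I. It was 1.95 ± 0.110 in shCEBPB and 0.118 ± 0.0101 in A2780. The members were 51.4% ± 0.464 of all keratin FPKM in shCON, 50.4% ± 0.396 in OlaR, 10.2% ± 3.51 in shCEBPB and 0.819% ± 0.0863 in A2780.

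**Figure D2:**
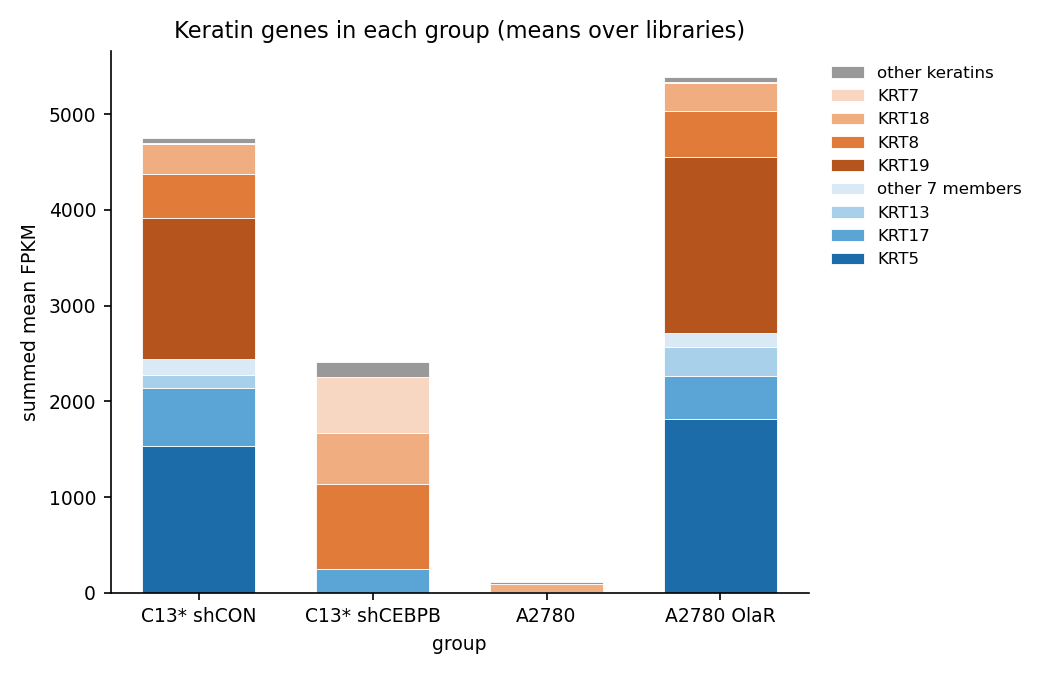
Mean FPKM of keratin genes stacked by group, with the members in blue, the main simple keratins in orange and all other keratin genes in grey. KRT5 (1530 and 1813 FPKM) and KRT19 (1470 and 1836) fill most of the shCON and OlaR bars, KRT8, KRT7, KRT18 and KRT17 fill the shCEBPB bar, and KRT18 (81.4) is most of the small A2780 bar.

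Knockdown of CEBPB was compared with the control shRNA first. Of the 10 members, 8 passed the filter on low values (1 FPKM in at least 7 of 15 libraries) and all 8 were lower in shCEBPB, where 84.7% of the 12006 genes tested were called in either direction. All 10 were lower without overlap of the libraries, as was the case in some direction for 66.0% of the genes tested. These counts carry no weight for the members, since this comparison chose them. The differences in log2(FPKM + 1), a scale on which low genes appear to change less than they do, were taken as shCEBPB minus shCON. They ran from -10.56 for KRT5 to -0.31 for KRT6C. The median over the 10 was -3.75, and over all genes tested it was -0.07. KRT13 differed by -6.82, KRT14 by -6.24, KRT6A by -5.08, KRT15 by -4.85 and KRT4 by -2.65. KRT17 differed by -1.40 and KRT16 by -1.09, so that their shCON means were 2.43 and 2.53 times the shCEBPB means. KRT6B and KRT6C did not pass the filter and differed by -0.38 and -0.31. CEBPB itself was 1.82 times as high in shCON as in shCEBPB. Without shCON replicate 1 the same count of 8 members was called lower.

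The shCEBPB libraries were not uniform in KRT17. In replicates 1 to 8 it was 135, 146, 142, 183, 353, 352, 342 and 344 FPKM. KRT16 in the same libraries was 1.71, 1.73, 1.53, 2.15, 3.01, 3.18, 3.26 and 3.56 FPKM. Replicates 5 to 8 thus held the higher values of both genes, with a gap between 183 and 342 for KRT17. CEBPB in these libraries was 42.1, 41.0, 30.2, 51.4, 52.3, 47.7, 58.7 and 53.8 FPKM. Relative depth was 0.942 to 1.07 in replicates 5 to 8 and 0.924 to 1.10 in the others. The library codes number the libraries, and codes 1 to 3 were set against 4 to 8. These ranges were known to stand apart in these data, so nothing is read from a lack of overlap between them. They also do not match the gap of KRT17 in shCEBPB, which lay between codes 4 and 5. KRT17 and KRT16 were the 2 members at 1 FPKM or more in at least 3 shCEBPB libraries, and both were higher in codes 4 to 8 without overlap, as was the case in some direction for 53.2% of all genes at that level. In OlaR 6 of the 8 such members were higher in codes 4 to 8 without overlap, where 56.9% of all genes did not overlap, and the other two were KRT6A and KRT4. KRT5, for example, was 1619 to 1653 FPKM in OlaR codes 1 to 3 and 1855 to 1991 in 4 to 8. In shCON none of 8 stood apart in this way, where 4.77% of all genes did not overlap. The difference of KRT17 between shCEBPB and shCON was -2.07 within codes 1 to 3 and -1.01 within 4 to 8, and that of KRT16 was -1.56 and -0.79. What the codes stand for is not stated in the sources used here, and their part in these values was not tested.

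KRT16 was set against KRT17 as a share. It was 1.05% ± 0.178 of KRT17 in shCON (SD, n = 7), 1.06% ± 0.147 in shCEBPB (SD, n = 8) and 1.22% ± 0.128 in OlaR (SD, n = 8). The ranges of the 3 groups overlapped, from 0.806% at the lowest to 1.42% at the highest. Within shCEBPB it was 1.26%, 1.19%, 1.07%, 1.17%, 0.853%, 0.902%, 0.953% and 1.03% in replicates 1 to 8. The share was thus lower in replicates 5 to 8, where KRT17 was higher. Since KRT17 is also the denominator of the share, nothing is read from this. KRT14 differed far more in its share between groups. It was 12.96% ± 1.09 of KRT17 in shCON, 7.65% ± 0.339 in OlaR and 0.0252% ± 0.0259 in shCEBPB. No window of 150 bases was shared unchanged between KRT16 and KRT17. Their longest common coding run was 61 bases, and that of KRT14 and KRT17 was 59. Whether reads of KRT17 were counted for KRT16 was not tested.

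**Figure D3:**
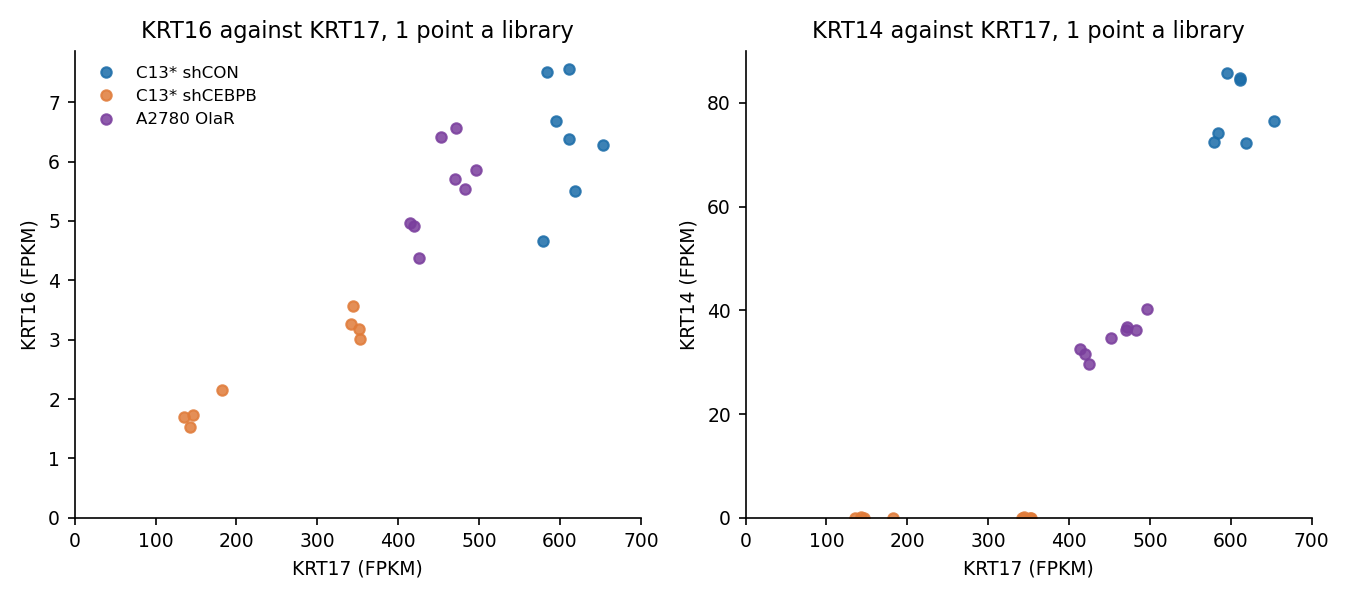
FPKM of KRT16 (left) and KRT14 (right) against FPKM of KRT17, with 1 point a library for shCON, shCEBPB and OlaR (A2780, with KRT17 at 0.103 to 0.262 FPKM, is not drawn). KRT16 stands near 1% of KRT17 in the 3 groups, while KRT14 is near 0 in shCEBPB at KRT17 values of 135 to 353 FPKM.

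The olaparib-resistant strain was then compared with A2780. Of the members 8 passed the filter (1 FPKM in at least 8 of 16 libraries) and all 8 were higher in OlaR, where 89.8% of the 12458 genes tested were called in either direction. Without overlap of libraries, 9 of the 10 were higher, and 74.1% of the genes tested did not overlap. KRT6C was the exception, since it was at 0 in 1 OlaR library. This comparison chose the members too, and nothing is read from the counts. The log2(FPKM + 1) differences (OlaR minus A2780) ran from 10.82 for KRT5 to 2.70 for KRT16, among those tested, with a median over the 10 of 4.90 and of -0.12 over all genes tested. KRT17 differed by 8.59, KRT13 by 7.59, KRT15 by 5.77, KRT14 by 5.15, KRT4 by 4.65 and KRT6A by 4.43. KRT5, KRT6A, KRT6B, KRT6C and KRT16 were listed at 0 in all 8 A2780 libraries, so no fold is given for them. CEBPB was 99.7 ± 7.63 FPKM in A2780 and 112 ± 11.6 in OlaR (SD, n = 8 each), and its libraries overlapped.

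The contrast between OlaR and shCON, in which the members were high alike, did not choose them, although its libraries did. Line, drug and shRNA differ together in it by the labels, so it compares libraries and no treatment. Of 8 members tested, 4 were higher in OlaR, 3 were lower and 1 was not called, while 42.2% of the 11547 genes tested were called (limma, adjusted p under 0.05). The mucosal pair was higher in OlaR. KRT4 had 4.97 times the shCON mean, a log2(FPKM + 1) difference of 2.12 (standard error 0.0385, limma adjusted p = 3.55e-17), and KRT13 had 2.29 times, a difference of 1.18 (standard error 0.0738, adjusted p = 9.78e-10). Neither gene's libraries overlapped between the groups. The share of all genes without overlap was not taken for OlaR against shCON, so nothing is read from a lack of overlap in it. KRT15 was higher by 0.28 (standard error 0.0485, limma adjusted p = 0.000196) and KRT5 by 0.24 (standard error 0.0542, adjusted p = 0.00169), and the libraries of KRT5 overlapped. Within codes 1 to 3 (3 libraries in each group) the KRT5 difference was 0.08, and within 4 to 8 (5 in OlaR and 4 in shCON) it was 0.34. The KRT15 differences were 0.12 and 0.38. These ranges were known from these data to stand apart and hold fewer libraries, so no test is read from them.

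The keratins of wounded skin and KRT14 went the other way or were not called. KRT14 was lower in OlaR, with a difference of -1.16 (standard error 0.0612, limma adjusted p = 1.03e-10), and the shCON mean was 2.26 times the OlaR mean. KRT6A was lower by a difference of -0.66 (standard error 0.0575, limma adjusted p = 8.01e-08) and KRT17 by -0.42 (standard error 0.0438, adjusted p = 6.49e-07). The libraries of these 3 genes did not overlap, which is again only described. KRT16 differed by -0.17 (standard error 0.0901, limma adjusted p = 0.147), and its libraries overlapped. Within codes 1 to 3 KRT16 differed by -0.45 and within 4 to 8 by 0.018, and again no test is read from these ranges. KRT6B and KRT6C did not pass the filter, with means of 0.312 and 0.241 FPKM in shCON and 0.125 and 0.0706 in OlaR. Of the partners, KRT5 and KRT14 were called in opposite directions, and KRT4 and KRT13 in the same direction. VIM, the intermediate filament gene of mesenchymal cells, was 9.82 ± 0.648 FPKM in shCON and 0.160 ± 0.0585 in OlaR.

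**Figure D4:**
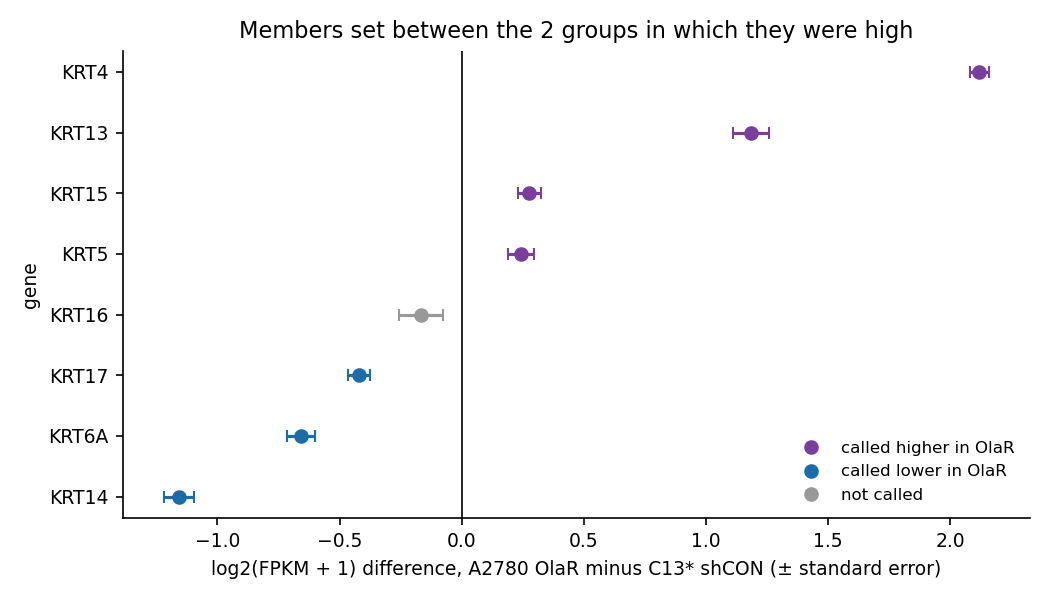
Difference in log2(FPKM + 1) between A2780 OlaR (n = 8) and C13* shCON (n = 7) for the 8 members that passed the filter, with the standard error of the limma fit as bars. KRT4 (2.12) and KRT13 (1.18) lie to the right, KRT14 (-1.16), KRT6A (-0.66) and KRT17 (-0.42) to the left, and KRT16 (-0.17) was not called.

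Between the 2 groups with low members, shCEBPB and A2780, only KRT16 and KRT17 passed the filter. Since the A2780 libraries did not pass 0.262 FPKM for either gene, both could pass only through shCEBPB, where they were higher, and nothing is read from that direction (88.9% of the 12234 genes tested were called). KRT17 differed by 7.61 on the log2(FPKM + 1) scale and KRT16 by 1.78. The other 8 members were under the filter in both groups, and of these KRT15 was higher in shCEBPB without overlap and KRT4 was lower. The share of all genes without overlap was not taken for these groups either, and nothing is read from it.

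The genes that stratified epithelia use with these keratins were read from lists, which were likewise written with earlier results known. Of 14 regulators of keratin genes, 13 were tested in shCEBPB against shCON, and 11 were lower and 2 higher, with a median difference over the 14 of -1.65. Calls were made for 84.7% of all genes tested there and for 89.8% in OlaR against A2780, so that a call alone sets no list apart. TP63, the master regulator of the basal layer, was 53.1 ± 3.52 FPKM in shCON and 0.0791 ± 0.0609 in shCEBPB (mean ± SD over libraries, here and for the genes that follow). EHF, an epithelial ETS factor, differed by -5.25. The 2 that were higher were KLF4, a factor of suprabasal cells (10.2 ± 1.06 and 75.7 ± 10.1 FPKM), and TFAP2A, an AP-2 factor (32.9 ± 0.912 and 67.9 ± 3.31). In OlaR against A2780 all 13 tested were higher, with a median over the 14 of 3.28. There TP63 differed by 5.65 and EHF by 4.81.

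Anchors of keratin filaments (desmosome and hemidesmosome genes) were 12 lower, 0 higher and 4 not called of 16 in shCEBPB against shCON, with a median of -0.92, where 84.7% of all genes tested were called in either direction. The largest differences were those of COL17A1, a hemidesmosome collagen (-6.57), DSG3, a basal desmoglein (-4.18), and DSC3, a basal desmocollin (-3.77). The 4 that were not called were DSP, EVPL, JUP and PKP3, of which DSP and JUP are parts of every desmosome. In OlaR against A2780 all 16 were higher, with a median of 3.09, led by ITGB4 (5.52), PPL (5.52) and COL17A1 (5.09). The summed level of the anchors was 865 to 940 FPKM in shCON, 822 to 930 in OlaR, 415 to 509 in shCEBPB and 158 to 171 in A2780.

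Simple epithelial keratins did not follow the members in shCEBPB. Of 7, 5 were tested, and 4 were higher and 1 lower than in shCON. KRT7 was 8.02 ± 1.34 FPKM in shCON and 583 ± 56.1 in shCEBPB. KRT8, KRT18 and KRT80 were higher as well, KRT8 at 459 ± 21.1 and 882 ± 91.6. The lower one was KRT19, at 1470 ± 75.2 and 0.0306 ± 0.0387. In OlaR against A2780 all 5 tested were higher, with differences of 10.59 for KRT19, 6.13 for KRT8 and 4.27 for KRT80. The genes of suprabasal and cornified cells were mostly under the filter, 16 of 20 in shCEBPB against shCON and 15 of 20 in OlaR against A2780. Of those tested, 1 was higher, 2 were lower and 1 was not called in the former, and 3 were higher and 2 lower in the latter. KRT1, KRT2 and LOR had means of at most 0.0111 FPKM in every group. KRT10, the partner of KRT1, was 11.9 ± 3.10 FPKM in shCON, 29.3 ± 6.68 in shCEBPB, 19.1 ± 3.51 in A2780 and 15.1 ± 3.64 in OlaR, and it was the gene called higher in shCEBPB. CNFN, a cornified envelope gene, had means between 3.28 FPKM (shCEBPB) and 13.5 (A2780). CSTA, a cornified envelope cystatin, was the list's highest gene in shCON at a mean of 33.2 FPKM, with 33.2 in OlaR, 3.23 in A2780 and 0 in shCEBPB.

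Of 11 mesenchymal markers 8 were tested in shCEBPB against shCON, 4 higher and 4 lower, and 9 in OlaR against A2780, 2 higher and 7 lower. The 4 lower in shCEBPB were CDH2, FN1, SNAI2 and TWIST1, and the 2 higher in OlaR were FN1 and SNAI2. VIM was 342 ± 10.7 FPKM in shCEBPB and 809 ± 13.8 in A2780, the groups in which the members were low. The mesenchymal list summed to 57.4 to 64.4 FPKM in shCON, 49.0 to 53.1 in OlaR, 375 to 404 in shCEBPB and 928 to 976 in A2780. In shCEBPB and A2780 most of this sum was VIM alone. Of 10 ovarian and Müllerian markers 4 were tested in shCEBPB against shCON, 2 higher and 2 lower, and 7 in OlaR against A2780, 3 higher and 4 lower. MSLN, the gene of mesothelin, was 30.7 ± 2.51 FPKM in shCON, 154 ± 34.7 in shCEBPB, 3.15 ± 0.344 in A2780 and 25.8 ± 3.91 in OlaR. FOLR1, a folate receptor, was 887 ± 49.9 FPKM in shCEBPB and between 0.910 and 13.3 on average in the others. This list summed to 38.1 to 44.8 FPKM in shCON, 29.7 to 40.6 in OlaR, 996 to 1102 in shCEBPB and 42.9 to 47.5 in A2780. PAX2, EMX2 and GATA4 of this list had means of at most 0.0274 FPKM in shCON, shCEBPB and OlaR, and PAX2 and GATA4 had means of 6.96 and 5.63 in A2780. The part of other cell types in the members' values was not tested.

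**Figure D5:**
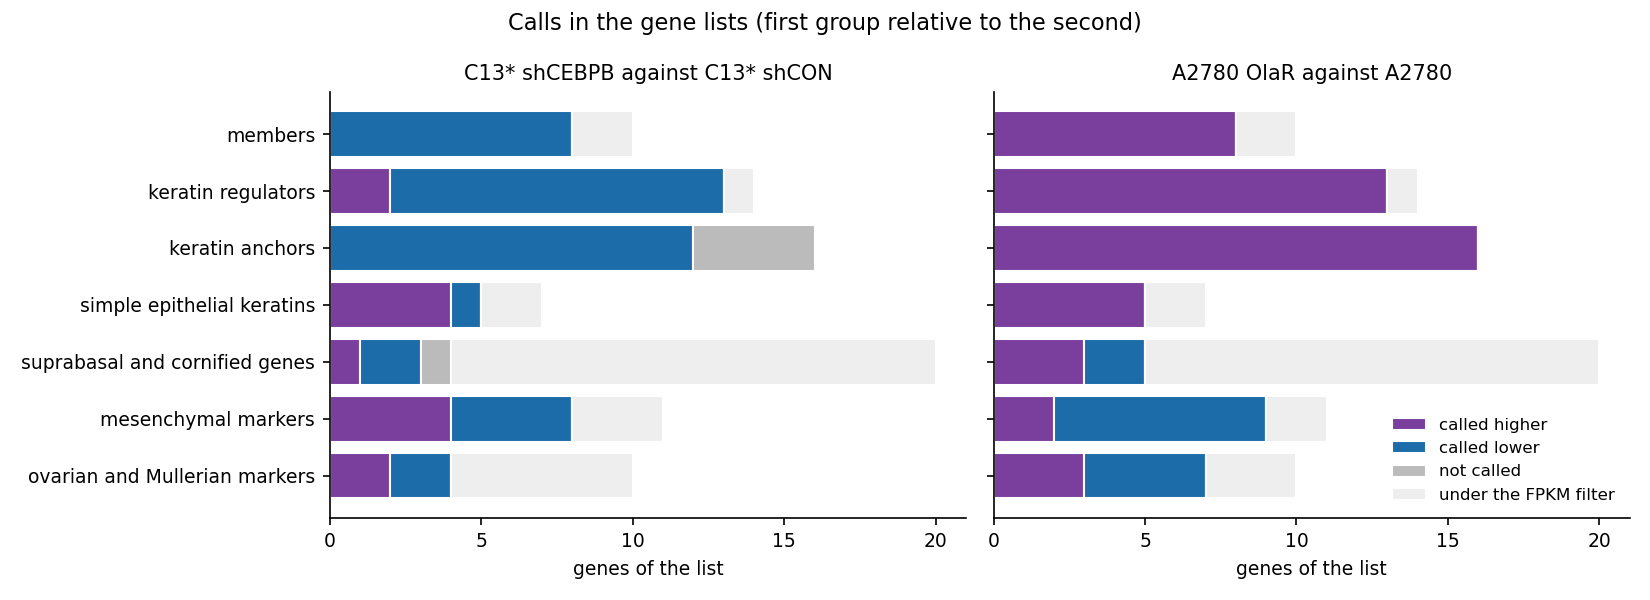
Number of genes of each list that were called higher, called lower, not called or under the FPKM filter, in shCEBPB against shCON (left) and OlaR against A2780 (right). The members, the regulators and the anchors are mainly lower on the left and higher on the right, while the simple keratins tested are higher in 4 of 5 on the left and in all 5 on the right.

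The genes whose pattern was most like that of a member were found by the root mean square difference of log2(FPKM + 1) over the 31 libraries, each gene centred on its own mean, among 12967 genes. For KRT5 the nearest was KRT19, a simple keratin of the type I cluster (0.15), and then ZBTB7C, a zinc finger gene (0.94), and SYT8, a synaptotagmin (1.20). KRT19 was 1470, 0.0306, 0.197 and 1836 FPKM on average in shCON, shCEBPB, A2780 and OlaR, beside 1530, 0.0134, 0 and 1813 for KRT5. KRT14 was nearest to COL17A1 (0.29), RAC2, a small GTPase (0.33), and ALDH1A3, an aldehyde dehydrogenase (0.35). Like KRT14, these 3 genes were lower in OlaR than in shCON on average, COL17A1 at 72.6 and 135 FPKM. KRT13 was nearest to C5orf38 (0.44), MAL2, an apical transport protein (0.49), and SPINT2, a protease inhibitor (0.49). KRT6A was nearest to C1orf116 (0.18), NRG1, an ERBB ligand (0.18), and TMEM40 (0.20). The libraries share depth and group, and the measure takes no account of why genes lie close.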

How the data were processed

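mRNA libraries of 4 cell line groups (31 libraries) were grouped by their labels. The study's methods state 150-bp paired-end reads, mapping to hg38 with TopHat and counting with HTSeq, and the submitters' processing notes also name FastQC and edgeR. The authors deposited FPKM, in 1 table for all libraries, which is all that was used. The tool and annotation behind them and the use of strand are not given in the sources used here. From 19225 entries, 4 with 2 repeated symbols were left out. Relative depth was read from low values, of which 70.9% of 18647 lay within 0.1 of a whole step (20% by chance), so reads were not recovered and no count test was run.

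Each comparison was fitted on its own 2 groups. Values of log2(FPKM + 1) went into limma 3.58.1 under R 4.3.3 (lmFit, then eBayes with trend). Tests were two-sided and adjusted by Benjamini-Hochberg, and a gene was called at an adjusted p under 0.05. A gene was tested if at least as many libraries as in the smaller group had 1 FPKM or more. On simulated data (A2780 libraries as 2 groups of 8, 11748 genes, 200 changed by 2-fold) it found 199, with 6.13% false calls. Each gene was drawn on its own there, without the differences between library codes seen in shCEBPB and OlaR. The rate of false calls in the comparisons above is therefore not known from it. Positions and transcripts came from GENCODE 44 (hg38), in which 18278 genes (95.1%) matched by symbol, and promoters from RefSeq. Python 3.11.15, pandas 2.3.3, numpy 2.4.6 and matplotlib 3.10.9 were used. The members and all gene lists were chosen with earlier results of these data known. Genes named are the members, CEBPB, up to 3 genes per list and comparison by size of difference, keratins within the clusters, and the 3 genes most like KRT5, KRT14, KRT13 and KRT6A. A gene of the regulator list that this rule picked is counted there and not reported here by name. Other list genes were named after their values were seen. Alternatives were pseudocounts of 0.1 and 0.01, no filter and a filter at 5 FPKM, quantile normalization, scaling to a common sum, a single fit of all groups, replicate blocks, library code ranges, a fold change of 2, summed KRT6 or type I levels and, added after seeing the data, leaving out shCON replicate 1.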

Additional observations from a re-analysis of the deposited data

Results flagged for a closer look

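Of 33 sets of values (1 member in 1 group), 6 had a library whose gap to the others was large against the whole range, by Dixon's criterion. Chance meets it in about 1 of 20 sets of normal values. That rate does not hold for sets near 0, so the count is not set against it. KRT6A in C13* shCON replicate 7 was 37.4 FPKM, against 30.9 to 33.4 in the other libraries. KRT13 in C13* shCEBPB replicate 8 was 0.708 FPKM, against 0.0535 to 0.225. KRT6C in A2780 OlaR replicate 4 was 0.213 FPKM, against 0 to 0.101. The others were single libraries above 0 in a group at 0: KRT14 in A2780 replicate 3 at 0.0166 FPKM, KRT6A in C13* shCEBPB replicate 2 at 0.0232 and KRT4 in C13* shCEBPB replicate 3 at 0.0224. In such a set the gap is the whole range, so the criterion is met whatever the value.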

How the results depend on the processing

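In shCEBPB against shCON, OlaR against A2780 and shCEBPB against A2780, the log2 differences of the members tested kept their direction and call under every alternative run (94, 87 and 21 values). In OlaR against shCON 93 of 96 did. There, within library codes 1 to 3, KRT5 was not called (0.08) and KRT16 was called lower (-0.45), and within codes 4 to 8 KRT16 had the other sign (0.018). The ranges were known from these data and hold fewer libraries, so nothing is read from these calls. The cause was not tested. With a fold change of 2 also required, the genes called were 3539 for shCEBPB against shCON, 4446 for OlaR against A2780, 68 for OlaR against shCON and 4710 for shCEBPB against A2780, and 3 members were called in OlaR against shCON (KRT4, KRT13 and KRT14). In shCEBPB against A2780, 6 members were called with no filter and 1 with a filter at 5 FPKM, since the filter sets which are tested. Quantile normalization moved the median of all genes by 0.14 there (log2) and by less than 0.1 in the other comparisons. Libraries with the same replicate number did not deviate together in these comparisons (mean r from -0.26 to -0.15). Library codes were not matched in this check, and shCEBPB was not set against OlaR. Whether the numbers pair libraries is therefore not settled by it. With the replicate block, the genes called were 9885, 10960, 3436 and 10655 and the members called 8, 8, 7 and 2 (in the order shCEBPB against shCON, OlaR against A2780, OlaR against shCON, shCEBPB against A2780). With the block by library code number they were 9833, 10960, 3510 and 10655. The same 3 genes were most like KRT5 at a pseudocount of 0.1. FPKM without counts limit what can be said of members near 0.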
